A study of Mus musculus with 8 samples.

Results

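The genes described here are those of V(D)J recombination and of the pre-B cell receptor: Rag1 and Rag2, Dntt, Vpreb1, Vpreb2, Igll1 and Vpreb3. They were chosen by symbol, and all 7 were among the 32285 genes counted in each library. Periosteal cells of the femur and tibia were profiled by droplet-based single-cell RNA sequencing in C57BL/6J male mice that were 16 weeks old. The ND group received normal diet chow and the HFD group received high fat diet chow, in which fat supplied 60% of the calories, for 12 weeks from 4 weeks of age. Bones of 4 mice per diet were pooled into 1 library, and cells were not assigned to mice. Every interval below therefore covers counting error only, no comparison of diets has a replicate, and no p-value is given. Differences between mice cannot be told apart from differences between diets.

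The RAG1 and RAG2 proteins form the recombinase that cuts immunoglobulin gene segments, first at the heavy chain locus in pro-B cells and again at the light chain loci in small pre-B cells. Terminal transferase, the product of Dntt, adds untemplated bases at the joins. Between the RAG-driven steps, a rearranged heavy chain is carried to the surface by the surrogate light chain, made of VpreB (Vpreb1 or Vpreb2) and lambda-5 (Igll1), and the pre-B cell receptor so formed drives a burst of division before the cell rests again. VpreB3 (Vpreb3) is a related protein of the endoplasmic reticulum that is known to persist later in the B lineage.

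In the GENCODE M21 annotation of GRCm38, the assembly named mm10 in the submitters' notes, Rag1 lay on the minus strand at chr2:101638282-101649501 and Rag2 on the plus strand at chr2:101624718-101632529. The pair was separated by 5752 bases with 0 annotated genes between them, and their 3′ ends faced each other. Vpreb1 (chr16:16868403-16870843) and Igll1 (chr16:16860671-16863985) were both on the minus strand, 4417 bases apart, again with 0 genes between them. Vpreb2 (chr16:17980428-17981273, plus strand) lay 1109584 bases from Vpreb1. Dntt was at chr19:41029275-41059525 and Vpreb3 at chr10:75943057-75949657, both on the plus strand. Counts were taken under the identifiers ENSMUSG00000061311 (Rag1), ENSMUSG00000032864 (Rag2), ENSMUSG00000025014 (Dntt), ENSMUSG00000059305 (Vpreb1), ENSMUSG00000059280 (Vpreb2), ENSMUSG00000075370 (Igll1) and ENSMUSG00000000903 (Vpreb3). The longest coding transcripts of Vpreb1 and Vpreb2 were identical at 739 of 759 aligned bases, and their last 300 bases, from which a 3′ library reads, differed at 12 positions. Reads of these near-identical paralogs can be exchanged or dropped by the counting, so the separate values of Vpreb1 and Vpreb2 are uncertain.

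The sequences upstream of Vpreb1, Igll1 and Rag1 are shown because these genes gave the shared and the diverging patterns described below. Each run is the 250 bases before the RefSeq transcription start on GRCm38.p6, written 5′ to 3′ on the gene's own strand. Capitals mark E-box letters (CAGCTG, or CAGGTG on either strand) and the EBF letters CCCNNGGG. The windows are chr16:16869256-16869505 for Vpreb1, chr16:16863986-16864235 for Igll1 and chr2:101649533-101649782 for Rag1, all on the minus strand, and the Vpreb1 window overlaps an exon of a longer non-coding Vpreb1 transcript.
Vpreb1: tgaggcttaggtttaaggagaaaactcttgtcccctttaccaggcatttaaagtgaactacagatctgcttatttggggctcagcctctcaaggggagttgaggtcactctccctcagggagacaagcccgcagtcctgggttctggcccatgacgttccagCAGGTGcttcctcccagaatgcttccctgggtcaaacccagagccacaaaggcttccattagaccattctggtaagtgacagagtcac
Igll1: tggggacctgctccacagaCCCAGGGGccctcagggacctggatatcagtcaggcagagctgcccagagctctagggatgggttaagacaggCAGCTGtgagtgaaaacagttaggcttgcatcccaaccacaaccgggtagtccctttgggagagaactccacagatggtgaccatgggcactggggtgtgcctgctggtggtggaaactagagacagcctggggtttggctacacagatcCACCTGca
Rag1: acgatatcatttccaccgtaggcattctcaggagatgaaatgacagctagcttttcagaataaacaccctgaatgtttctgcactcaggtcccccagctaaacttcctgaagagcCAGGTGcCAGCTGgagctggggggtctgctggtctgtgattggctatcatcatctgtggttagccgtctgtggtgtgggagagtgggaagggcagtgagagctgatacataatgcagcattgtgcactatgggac
At least 1 of the E-box strings was found in 4 of the 7 genes (Rag1, Vpreb1, Vpreb2 and Igll1) and in 27.7% of 32851 promoter windows of this length. The CAGGTG of Vpreb1 and that of Vpreb2 lay in a near-identical stretch of these paralogs, so they are not independent matches. The Vpreb2 window, chr16:17980315-17980564, also ran into the annotated gene, which starts at 17980428. CAGCTG was held by 13% of windows, CAGGTG by 17.2% and CCCNNGGG by 11.8%. In Igll1 the EBF letters began 231 bases and CAGCTG 158 bases before the start, whereas in Rag1 both E-boxes lay next to each other, at 135 and 128 bases. A match describes letters and not binding, and all 3 windows came from the reference and not from these mice.

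After the filter (over 500 and under 8000 detected genes, under 20% mitochondrial UMIs), 6029 of 6314 ND barcodes and 6224 of 6636 HFD barcodes remained, with medians of 4610 and 4823.5 UMIs per cell. A UMI is a molecular tag that counts 1 captured transcript, and levels below are UMIs per 1000000 UMIs of the same cells (UPM). The libraries held 48558889 and 49940976 UMIs and shared 15 barcodes, none of which was a B precursor-like cell in either library. Mesenchymal-like cells numbered 410 in ND and 670 in HFD, and B-lineage cells 1507 and 1475. The dissected bones were digested to obtain the cells, and the paper named no B cells among its periosteal clusters. Whether the B-lineage cells came from the periosteum or from the marrow was not tested. Cells were clustered without the 7 genes, and B-lineage clusters were named from other markers. B precursor-like cells (Il7r, Sox4, Myb, Akap12) numbered 338 in ND and 440 in HFD, immature B-like cells (Ighm, Ms4a1, Spib, Igkc) 789 and 689, and mature B-like cells (Ighd, Fcer2a, Cr2) 380 and 346. One immature cluster held 446 of the ND and 269 of the HFD cells of that stage, and the other held 343 and 420. Heat-shock genes were among the leading genes of that first immature cluster, of a mature cluster and of 1 precursor cluster of 74 ND and 5 HFD cells. Hspa1a was at 1033 UPM in ND and 450 in HFD immature cells, and at 444 and 173 in the Erg-high precursors described next. The part of these genes in the diet values below was not tested.

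Precursor-like cells fell into 3 groups. The Erg-high group (95 ND, 108 HFD cells) carried Erg at 66.7 and 73.1 UPM and Arpp21 at 79.6 and 77.3, with Igkc, the kappa light chain, at 529 and 299. Histone genes were among its leading genes. So was Pf4, at 1.36 UPM in ND and 214 in HFD (355 UMIs in 4.63% of HFD cells). Pf4 is a megakaryocyte gene, and here it was also a leading gene of a macrophage/monocyte-like cluster. The other 2 megakaryocyte markers, Itga2b and Ppbp, were at 2.72 and 4.83 and at 0 and 1.21. Doublet scores were among the highest 5% in 8.87% of the cells of this group, against 0 to 5.56% in the other B-lineage clusters. At a clustering resolution of 1.0, a cluster of 103 cells with Erg and Arpp21 (median 5908 UMIs) had such scores in 2.91% of cells. Another cluster with both markers, of 100 cells with Top2a among its leading genes (median 19905.5 UMIs), had them in 15%. Whether the Pf4 UMIs came from mixed cells was not tested. The Erg-low cycling group (42 and 48 cells) was led by histone genes and Mki67, and every cell held a UMI of Mki67 or Top2a. The Erg-low resting group (201 and 284 cells) was named for its larger part: 15.9% and 13% of its cells were cycling by the same measure. It carried Igkc at 6241 and 6894 UPM. These groups are clusters, so the levels below describe them and test nothing.

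**Figure D1:**
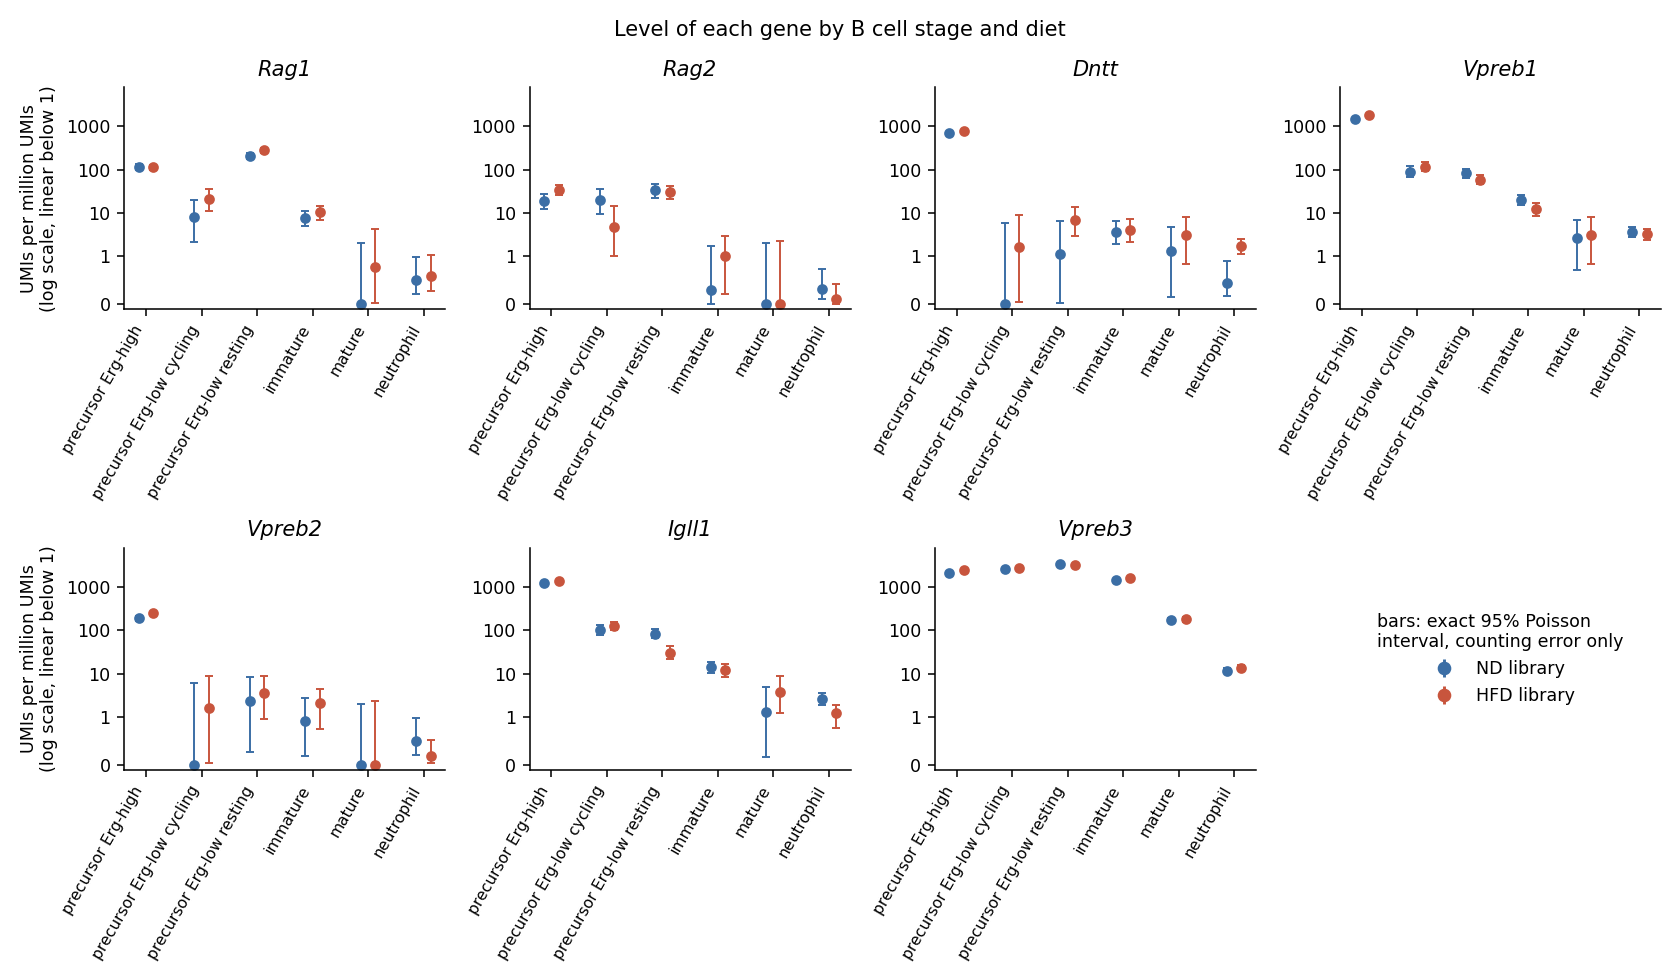
UMIs per 1000000 UMIs (y axis, log scale, linear below 1) of each gene in 3 groups of B precursor-like cells, in immature and mature B-like cells and in neutrophil-like cells (x axis), for the ND (blue) and HFD (red) libraries. Points are values of 1 pooled library and bars exact 95% Poisson intervals, which for a count of 0 end at 3 counts; Dntt and Vpreb2 sat high only in the Erg-high group, Rag1 in both the Erg-high and the Erg-low resting groups, and Vpreb3 stayed above 1000 into the immature stage.

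Rag1 was highest in the Erg-low resting group, at 207 UPM in ND (181 UMIs, interval 178 to 240) and 277 in HFD (319 UMIs, 247 to 309). It was lower in the Erg-high group, at 117 (100 to 136) in ND and 112 (96.7 to 130) in HFD. In the Erg-low cycling group it was at 7.85 (4 UMIs) in ND and 20.9 (13 UMIs) in HFD, values whose intervals overlapped those of immature cells at 7.65 and 10.3. Rag1 was thus high in 2 of the 3 precursor groups and low in the group whose cells all cycled. In mature cells 0 of 380 ND cells held a Rag1 UMI, which allows a share of cells with a UMI of up to 0.789% and sets no limit on cells that express the gene, and 1 of 346 HFD cells did. The order of the leading groups depended on cycling cells: among non-cycling cells alone, Rag1 in ND was 446 in the Erg-high and 269 in the Erg-low resting group, whereas in HFD the values were 348 and 335 with overlapping intervals. It also depended on the scale. Per cell, non-cycling Erg-high cells held 2.66 UMIs in ND and 2.31 in HFD, and non-cycling Erg-low resting cells 0.959 and 1.18. Median depths were 5189.5 and 6256 UMIs in the former and 3399 and 3412 in the latter.

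Rag2 gave far fewer UMIs, 66 in ND and 95 in HFD precursors. It stood at 33.2 UPM (22.2 to 47.7) in ND and 30.4 (21.2 to 42.2) in HFD Erg-low resting cells, and at 18.4 (12.1 to 26.7) and 34.4 (26.1 to 44.6) in Erg-high cells, with overlapping intervals in both libraries. In the Erg-low cycling group Rag2 was 19.6 in ND (10 UMIs) and 4.82 in HFD (3 UMIs), and a single ND Erg-low resting cell held 9 of that group's 29 UMIs. The low HFD value (interval 0.994 to 14.1) lay outside the intervals of the other HFD precursor groups, whereas the ND value did not separate from either. Immature cells held 1 and 3 Rag2 UMIs in all, and mature cells 0 in both libraries.

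Dntt lay almost wholly in the Erg-high group among B cells. Its level there was 704 UPM in ND (1034 UMIs, 661 to 748) and 798 in HFD (1321 UMIs, 755 to 842), and 77.9% and 80.6% of cells held a UMI. The Erg-low resting group held 1 Dntt UMI in ND and 8 in HFD, and the Erg-low cycling group 0 and 1. Of all Dntt UMIs in precursor-like cells, 99.9% in ND and 99.3% in HFD lay in Erg-high cells. Immature cells were at 3.67 and 4.11 UPM and mature cells at 1.32 and 3.07. In neutrophil-like cells, a type that should lack the gene, Dntt was at 0.437 and 1.70, so the later B stages lay at most a few UPM above background.

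The surrogate light chain genes were also highest in the Erg-high group but extended further into Erg-low cells. Vpreb1 was at 1463 UPM in ND Erg-high cells (2150 UMIs) and at 1865 in HFD (3089 UMIs), and Igll1 at 1263 (1856 UMIs) and 1394 (2309 UMIs). Vpreb2 was at 188 (276 UMIs) and 244 (404 UMIs) in the same cells. In the Erg-low cycling group Vpreb1 was still at 90.2 and 117 and Igll1 at 102 and 127, in 21.4% and 37.5% of cells for Vpreb1 and in 28.6% and 39.6% for Igll1. The Erg-low resting group held Vpreb1 at 83.6 and 59.0 and Igll1 at 83.6 and 30.4. Vpreb2 was not detectable beyond a few UMIs there, with 0 and 1 UMIs in the Erg-low cycling and 2 and 4 in the Erg-low resting group. The Vpreb1 to Vpreb2 UMI ratio was 7.79 (6.87 to 8.86) in ND and 7.65 (6.89 to 8.50) in HFD Erg-high cells. In all Erg-low cells it was 59.5 (16.1 to 497) from 119 and 2 UMIs in ND and 28.2 (11.8 to 88.2) from 141 and 5 UMIs in HFD, above the Erg-high intervals in both libraries. In immature cells Vpreb1 was held by 1.77% and 3.05% and Igll1 by 1.27% and 2.18% of cells, against 1.46% and 1.89% (Vpreb1) and 0.874% and 0.863% (Igll1) of neutrophil-like cells, whose median depths of 4127 and 4304 UMIs were close to those of immature cells (3815 and 3828). Cycling cells held 58 of the 65 Vpreb1 UMIs of ND and 19 of the 36 of HFD immature cells. In mature cells Vpreb1 was held by 0.789% and 1.16%, below the neutrophil-like shares.

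Vpreb3 behaved differently from the other 6 genes. It was detected in 99.4% of ND and 98.2% of HFD precursors, and all 3 precursor groups were within 2068 to 3451 UPM in both libraries. It was highest in the Erg-low resting group, at 3451 in ND and 3145 in HFD, and lowest in the Erg-high group, at 2068 and 2468, with intervals that did not overlap. This order turned when cycling cells were set aside: non-cycling Erg-high cells were at 4155 and 4681 and non-cycling Erg-low resting cells at 3755 and 3330. The level was 1475 and 1575 in immature cells (92.3% and 93.2% of cells) and 174 and 178 in mature cells (41.6% of cells in each library). Both mature values stood above the neutrophil-like background of 11.7 and 13.6 UPM, held by 3.45% and 4.4% of cells. The precursor to immature difference was 0.81 on the log2 scale in ND and 0.80 in HFD, and the immature to mature difference 3.08 and 3.14. The last value depended on where the immature stage ended. At a clustering resolution of 1.0, a cluster of 439 ND and 257 HFD cells with markers of both stages was named mature instead of immature, and the immature to mature difference of Vpreb3 became 0.32 (0.24 to 0.41) in ND and 0.68 (0.60 to 0.76) in HFD. With stages from marker UMIs it was 0.52 and 0.49, and the direction was the same in each case.

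**Figure D2:**
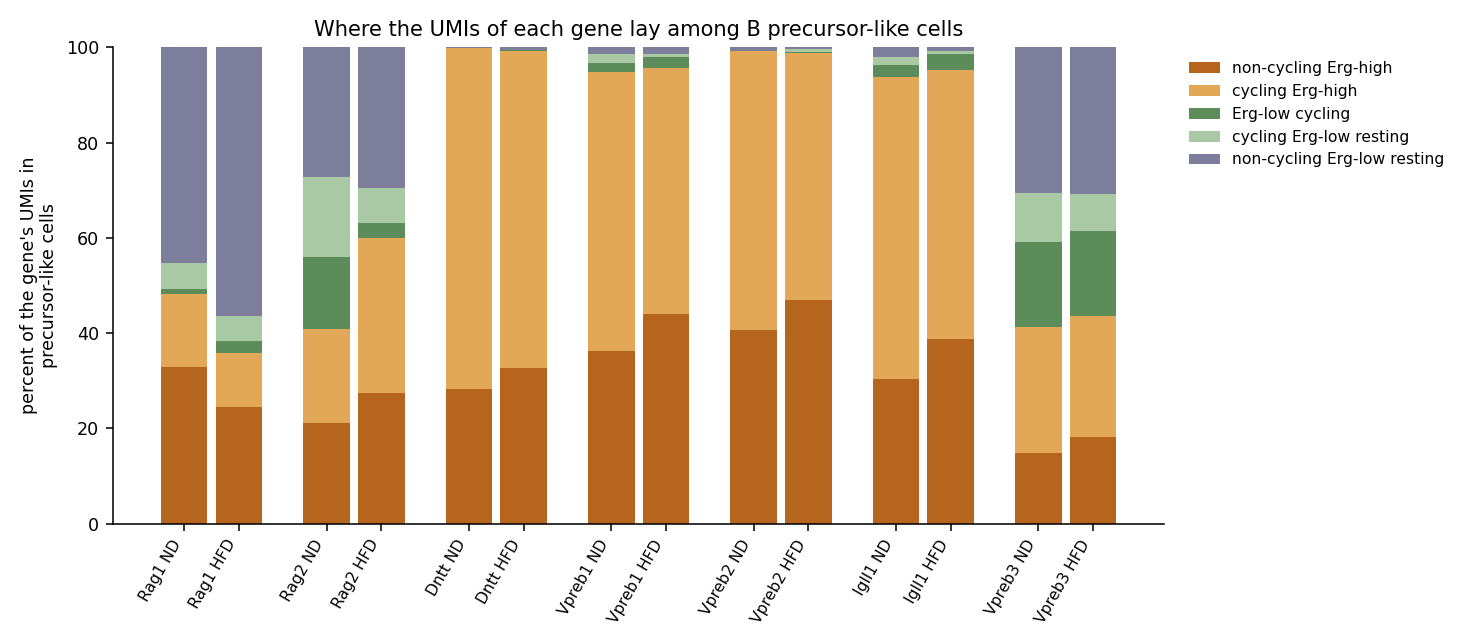
Percent of each gene's UMIs in B precursor-like cells (y axis, 0 to 100) that lay in each group of those cells (colors), with 1 bar per gene and library. Dntt, Vpreb1, Vpreb2 and Igll1 were at least 93.7% within the Erg-high group in both libraries, whereas Rag1, Rag2 and Vpreb3 were spread over Erg-high and Erg-low cells.

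Taking all precursor-like cells together, 6 of 7 genes were at least 2-fold higher than in immature cells in both libraries, against 13.8% of 9692 genes tested in ND and 14.4% of 9716 in HFD. The exception was Vpreb3. The median log2 difference of the 7 was 5.61 in ND and 5.74 in HFD, and that of all genes 0.09 and 0.14. Against mature cells all 7 were at least 2-fold higher, beside 29.2% and 28.5% of genes. Mature cells held 0 UMIs of Rag2 and Vpreb2 in both libraries and of Rag1 in ND, so these differences are lower bounds, and the low ends of their log2 intervals ran from 3.21 to 5.68. Rag1 differed from immature cells by 4.01 (3.45 to 4.68) in ND and 3.85 (3.34 to 4.46) in HFD on the log2 scale, less than Dntt at 6.57 (5.82 to 7.58) and 6.50 (5.75 to 7.51). When non-cycling Erg-high cells were set against non-cycling Erg-low resting cells, 4 genes in ND and 5 in HFD were at least 2-fold higher, beside 11.2% and 11.3% of genes. Dntt, Vpreb1, Vpreb2 and Igll1 differed by 5.16 to 8.81 in both libraries, and Rag2 passed 2-fold in HFD at 1.15 (0.32 to 1.97). Of these, the ND value of Dntt (8.81, 6.90 to 14.7) rested on 1 UMI in Erg-low cells, and those of Vpreb2 on 2 UMIs in ND (6.70, 5.13 to 10.1) and 1 in HFD (8.26, 6.35 to 14.2).

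Partner genes had smaller differences. Of 13 recombination and repair partners, 3 in ND and 5 in HFD were at least 2-fold higher in precursor than in immature cells, beside 13.8% and 14.4% of all genes, with a median of 0.20 and 0.24 against 0.09 and 0.14 over all genes. The 3 shared were Hmgb1 and Hmgb2, the bending proteins that assist RAG cleavage, and Xrcc6, which encodes Ku70, at 2.76 and 3.33. By UMIs of Mki67 or Top2a, 37.0% of ND and 31.4% of HFD precursor-like cells were cycling, against 7.60% and 6.53% of immature cells. The part of cycling in the precursor to immature differences was not tested. Lig4, the ligase of end joining, was at 0.87 in ND and 2.11 in HFD. Of the 12 genes of pre-B receptor signaling, Il7r, a marker by which precursors were named, was at least 2-fold higher in them (3.52 and 3.73), and Cd79a and Lyn at least 2-fold lower in both libraries, together with Cd79b in ND, beside 9.54% and 9.35% of all genes. Among 18 transcription factors, Erg, Lef1 and Myb were higher in both libraries and Bach2 in HFD, and Ikzf3 and Irf8 were lower in both and Spib in ND. Erg, Lef1 and Myb were among the markers that named precursor clusters and Spib among those of immature clusters, so the direction of these 4 follows from the naming. Of the 6 immunoglobulin constant genes 5 were lower in ND and all 6 in HFD, and among them Ighm and Igkc were markers of immature clusters. Polm, a polymerase of end joining, differed from Dntt in the opposite direction between non-cycling Erg-high and non-cycling Erg-low resting cells. It had 1 and 71 UMIs in these groups in ND, a log2 difference of -4.38 (-10.28 to -2.43), and 1 and 144 in HFD, a difference of -5.33 (-11.23 to -3.41).

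Whether the genes differed between cycling and non-cycling precursors was examined next, with a cell taken as cycling when it held a UMI of Mki67 or Top2a. A deeper cell is more likely to hold such a UMI, so this call also sorts cells in part by depth. Over all precursors 2 of 7 genes, Rag1 and Rag2, were at least 2-fold lower in cycling cells in both libraries, beside 15.5% and 15.9% of genes. Rag1 was at 323 UPM in non-cycling and 39.2 in cycling ND precursors, and at 339 and 45.1 in HFD. This difference was -3.04 (-3.42 to -2.67) in ND and -2.90 (-3.24 to -2.59) in HFD. For Rag2 the levels were 37.0 and 17.1 in ND and 43.7 and 18.7 in HFD. Per cell the order of Rag2 was the opposite, at 0.150 UMIs in non-cycling and 0.272 in cycling ND precursors and at 0.179 and 0.297 in HFD, whereas the count of 2 genes became 1 with stages from marker UMIs, with thinned cells and with cycling taken from the cell cycle phase. Because cycling cells came from both Erg-high and Erg-low groups, the comparison was repeated within each.

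Within the Erg-high group, cycling cells were deeper, with medians of 19872 and 17863 UMIs against 5189.5 and 6256 in non-cycling cells, so the scale mattered. Per 1000000 UMIs, 6 of 7 genes were at least 2-fold lower in cycling cells in both libraries, Dntt being the exception, beside 19.3% and 19.0% of genes. Per cell, only Rag1 was lower in both libraries: it went from 2.66 UMIs in non-cycling to 1.08 in cycling ND cells and from 2.31 to 1.11 in HFD cells. The share of all genes that were lower per cell was not counted. Dntt went per cell from 6.66 to 14.5 in ND and from 7.89 to 16.7 in HFD, and Igll1 from 13.6 to 24.6 and from 17.1 to 25.8. Rag2 was at 0.318 and 0.255 in ND and at 0.473 and 0.585 in HFD, which rest on 13 to 31 UMIs each. Per 1000000 UMIs the median log2 ratio over all genes was -0.17 in both libraries. All 7 genes lay below it, the highest being Dntt at -0.86 in ND and -0.79 in HFD. The genes that rose per cell therefore rose less than the median gene. Rag1 thus had the lowest cycling to non-cycling ratio on both scales, -3.28 in ND and -2.92 in HFD per 1000000 UMIs and -1.30 and -1.05 per cell, all on the log2 scale.

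**Figure D3:**
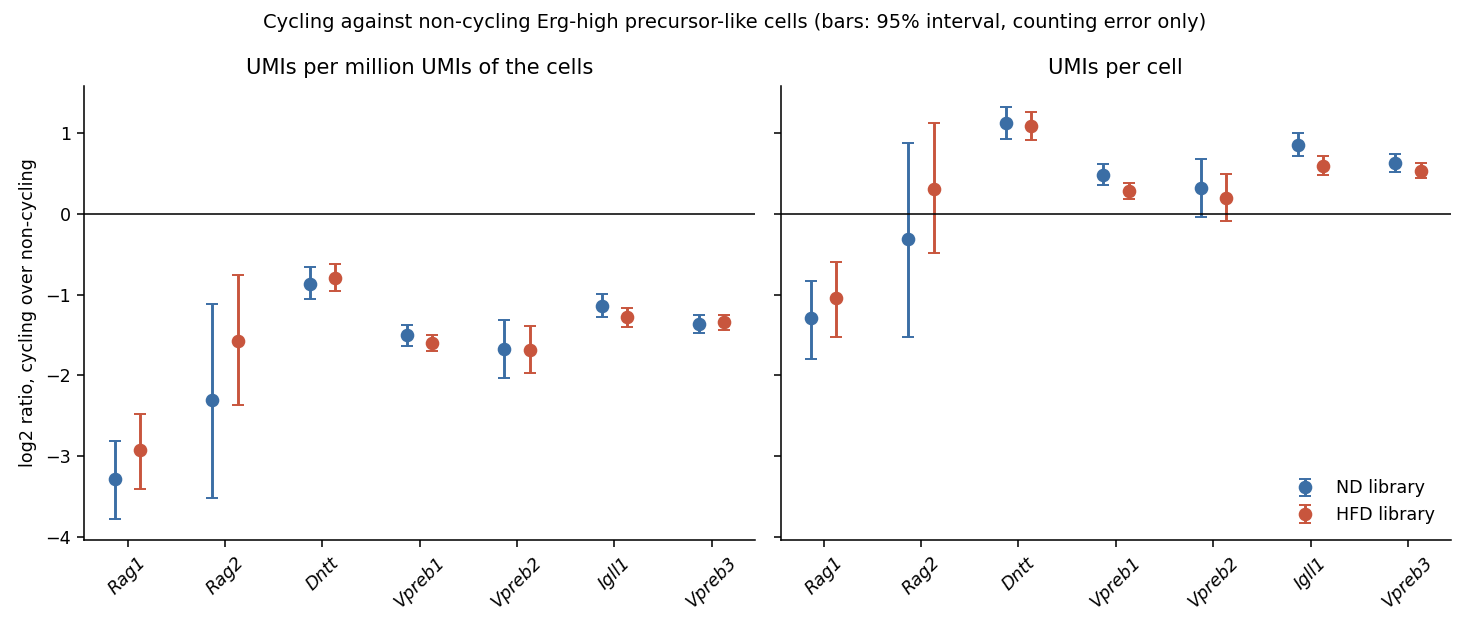
Log2 ratio of cycling over non-cycling Erg-high precursor-like cells (y axis) for each gene (x axis), per 1000000 UMIs on the left and per cell on the right, in ND (blue) and HFD (red). Bars are 95% intervals for counting error. All 7 genes lay below 0 per 1000000 UMIs. Per cell, Rag1 lay below 0 in both libraries and Dntt, Vpreb1, Igll1 and Vpreb3 above 0. The Vpreb2 points were above 0 per cell, with bars that crossed 0 in both libraries.

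The same Erg-high cells were also divided by their number of Mki67 and Top2a UMIs. Cells with none are the non-cycling group, so the later bins only divide the cycling group and are no separate support. In Erg-high cells with none, with 1 to 4, with 5 to 14 and with 15 or more such UMIs, Rag1 in ND averaged 2.66, 1.67, 0.167 and 1.22 UMIs per cell. In HFD the 4 values were 2.31, 1.43, 0.889 and 1.03. Rag1 was lower in each later bin than in the first, and not lowest in the last. Igll1 went over the same bins from 13.6 to 27.8 in ND and from 17.1 to 28.7 in HFD. The middle bins held only 9 to 14 cells each, and without them Rag1 still went from 2.66 to 1.22 in ND and from 2.31 to 1.03 in HFD. Median depth was 5189.5 UMIs in the first and 29020 in the last bin of ND, and 6256 and 24313 in HFD.

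**Figure D4:**
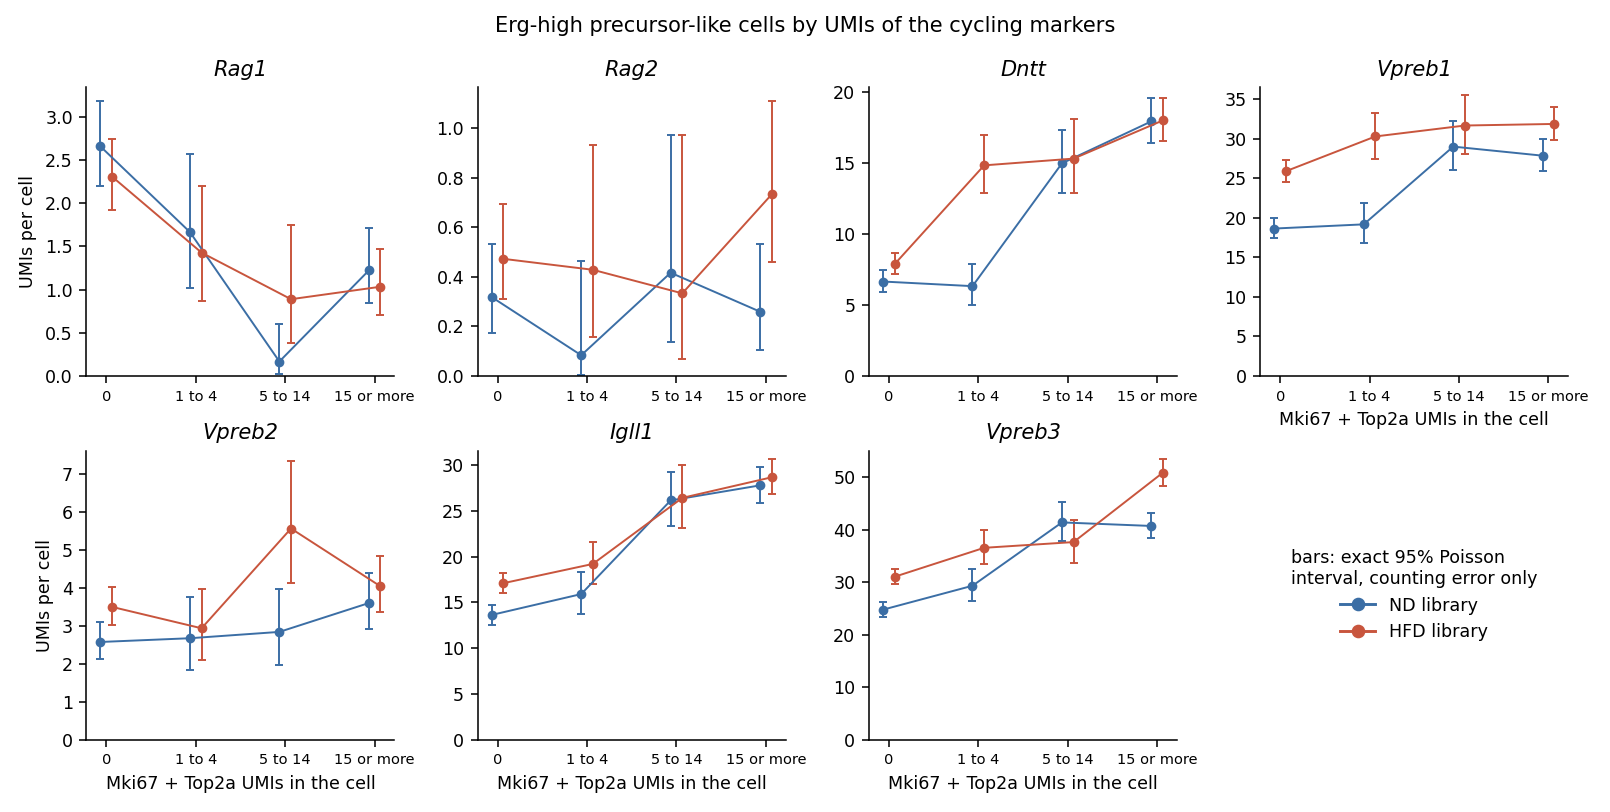
UMIs per cell of each gene (y axis, from 0) in Erg-high precursor-like cells binned by their UMIs of Mki67 and Top2a together (x axis), in ND (blue) and HFD (red). Bars are exact 95% Poisson intervals; Rag1 was highest in the bin without marker UMIs in both libraries, whereas Dntt, Igll1 and Vpreb3 were lowest there or in the next bin.

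After each cell was thinned to 1000 UMIs, a Rag1 UMI was found in 43.2% of non-cycling and 3.92% of cycling ND Erg-high cells and in 34.5% and 3.77% of HFD cells. Unthinned shares were 84.1% and 43.1% in ND and 72.7% and 43.4% in HFD. Thinned shares of Vpreb1 were 81.8% and 62.7% in ND and 87.3% and 71.7% in HFD. No Erg-high cell was left out by the thinning.

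The ratios between genes moved accordingly. In Erg-high cells the Vpreb1 to Rag1 UMI ratio went from 7.01 (5.77 to 8.58) in non-cycling to 24.2 (18.5 to 32.3) in cycling ND cells, and from 11.2 (9.35 to 13.6) to 28.2 (21.8 to 37.2) in HFD cells. The Vpreb1 to Vpreb2 ratio was 7.26 and 8.16 in ND and 7.42 and 7.85 in HFD, with overlapping intervals. The Vpreb1 to Igll1 ratio went from 1.37 (1.23 to 1.52) to 1.06 (0.980 to 1.14) in ND and from 1.51 (1.39 to 1.64) to 1.22 (1.13 to 1.31) in HFD. Rag1 to Rag2 went from 8.36 (4.79 to 15.8) to 4.23 (2.28 to 8.44) in ND, with overlapping intervals, and from 4.88 (3.18 to 7.76) to 1.90 (1.21 to 3.04) in HFD. Ratios of UMIs between genes also carry the capture of each transcript, which was not measured, so only their change between groups is read here.

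Among the partner lists in Erg-high cells, Hmgb1 and Hmgb2 were at least 2-fold higher in cycling cells in both libraries, at 2.04 and 1.79 and at 2.37 and 2.49. Xrcc6 went the other way, at -2.16 and -1.78, as did Foxo1, a known activator of Rag1 and Rag2, at -2.09 and -1.58, and Erg at -1.43 and -1.94. The partner ratios and counts here are per 1000000 UMIs of groups that differed in depth, and they give no direction per cell. Vpreb1 was also lower in cycling cells on that scale. Per cell, however, it went from 18.6 to 26.1 UMIs in ND and from 25.9 to 31.4 in HFD. Of the 18 transcription factors 7 in ND and 8 in HFD were at least 2-fold lower, beside the 19.3% and 19.0% of genes given above, and 0 were higher. Of the 12 signaling genes 7 of 12 tested in ND and 6 of 11 in HFD were lower. In the Erg-low cells as a whole, Rag1 was lower in cycling cells by a similar amount, -3.17 in ND and -2.90 in HFD, whereas Igll1 was higher at 0.81 and 2.53 and Vpreb1 at 1.05 and 0.94. Rag1 on the one hand and Vpreb1 and Igll1 on the other thus differed in opposite directions per 1000000 UMIs in Erg-low cells. In Erg-high cells they differed in the same direction on that scale. Per cell, the signs were opposite in both groups, but in Erg-high cells the sign of Vpreb1 and Igll1 depended on the scale. Cycling Erg-high cells were deeper, which raises every per-cell ratio there. In Erg-low cells the per-cell log2 ratios in ND and HFD were -1.60 and -1.31 for Rag1. They were 2.62 and 2.53 for Vpreb1 and 2.38 and 4.12 for Igll1. In Erg-high cells the same ratios were -1.30 and -1.05, 0.48 and 0.28, and 0.85 and 0.59. Vpreb2 had too few UMIs in Erg-low cells to be compared.

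Single cells showed which transcripts were held together. In the Erg-high group, 76.8% of ND and 80.6% of HFD cells held at least 4 of the 6 genes other than Vpreb3, and 12.6% and 19.4% held all 6. In the Erg-low resting group 0 of 201 ND and 3 of 284 HFD cells held 4 or more, and 38.3% and 36.6% held none. All 85 ND and 99 HFD Erg-high cells with Igll1 also held Vpreb1, and 85 of 86 and 99 of 99 cells with Vpreb1 held Igll1. Of Rag1-positive cells, 93.2% in ND and 96.8% in HFD also held Vpreb1 in the Erg-high group, against 9.80% and 9.03% in the Erg-low resting group. In the whole Erg-high group, Vpreb1 was held by 86 of 95 ND and 99 of 108 HFD cells. In the whole Erg-low resting group it was held by 25 of 201 and 28 of 284 cells. This split thus followed the groups and was not particular to Rag1-positive cells. Both Rag1 and Rag2 were found in 27 ND and 43 HFD precursors, 16.4% and 18.8% of cells with Rag1 and 64.3% and 61.4% of cells with Rag2. Among all precursors, Rag1 was held by 165 of 338 ND and 229 of 440 HFD cells, and Rag2 by 42 and 70. The joint shares depend on depth: with all precursors of both libraries thinned to 1000 UMIs, the share of Rag1-positive cells with Rag2 went from 17.8% to 4.61%.

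Across single Erg-high cells, the rank correlation of depth-scaled Vpreb1 and Igll1 was 0.86 in 44 non-cycling and 0.67 in 51 cycling ND cells, and 0.46 in 55 non-cycling and 0.83 in 53 cycling HFD cells. That of Rag1 and Rag2 was between -0.03 and 0.20 in the same 4 sets, and that of Rag1 and Vpreb1 between 0.07 and 0.40. Values in 1 cell share its depth and sampling, Rag2 counts are sparse, and these coefficients are descriptions only.

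The diet comparison asks whether HFD feeding went with other levels of these genes in the B-lineage cells of these libraries. Precursor-like cells made up 5.61% of kept ND cells (exact interval 5.04 to 6.22) and 7.07% of kept HFD cells (6.44 to 7.73). Without the precursor cluster led by stress genes, a comparison added after the data were seen, the shares were 4.38% and 6.99%, and with stages taken from marker UMIs in each cell they were 9.11% and 9.53%. Erg-high cells alone were 1.58% (1.28 to 1.92) and 1.74% (1.43 to 2.09). Over all precursors 0 of 7 genes differed by 2-fold between the libraries, beside 3.56% of 9709 genes. The 7 log2 ratios of HFD over ND ran from 0.02 for Igll1 to 0.29 (0.07 to 0.52) for Vpreb2, with a median of 0.24 against 0.04 over all genes.

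Within the Erg-high group the levels in ND and HFD were 117 and 112 UPM for Rag1, 18.4 and 34.4 for Rag2, 704 and 798 for Dntt, 1463 and 1865 for Vpreb1 and 188 and 244 for Vpreb2. None of the 7 reached 2-fold, beside 4.22% of genes. Rag2 had the largest ratio of the 7 at 0.89 (0.22 to 1.62), from 27 and 57 UMIs. In cycling Erg-high cells alone it was 1.13 (0.18 to 2.21), from 13 and 31 UMIs, and it was then 1 of 7 past 2-fold, beside 4.95% of genes. Vpreb1 was at 0.35 (0.27 to 0.43), Vpreb3 at 0.25 (0.19 to 0.32) and Rag1 at -0.06 (-0.37 to 0.25), where the counting interval included 0. In non-cycling Erg-high cells 0 of 7 passed 2-fold, beside 7.03% of genes. No value of the 7 in the precursor comparisons moved beyond its interval when the cells with the highest 5% of doublet scores were left out.

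In the Erg-low resting group 1 of the 5 genes with at least 20 UMIs passed 2-fold, beside 4.81% of genes. This was Igll1, with 73 UMIs in 21 of 201 ND cells and 35 UMIs in 14 of 284 HFD cells, of which 1 HFD cell held 14. Its ratio was -1.45 (-2.09 to -0.86), and -1.90 (-2.56 to -1.29) without the stress-gene cluster. That cluster held 74 of the 201 ND and 5 of the 284 HFD cells of the group, so the group's cells came from different clusters in the 2 libraries. Leaving it out did not even out Hspa1a, which was still at 199 UPM in ND and 10.6 in HFD, whereas Jun was nearer at 641 and 502. Vpreb1 was at -0.50 in the whole group, and at -0.85 (-1.36 to -0.33) without that cluster. Rag1 was at 0.41 (0.15 to 0.69), from 207 and 277 UPM, and at 0.55 (0.24 to 0.88) without it. The Igll1 ratio in the Erg-low cycling group was 0.31 (-0.21 to 0.85), and 0 of 3 genes there passed 2-fold, beside 6.11% of genes. Whether these groups differed from each other in their diet ratio was not tested, since each diet was 1 library.

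**Figure D5:**
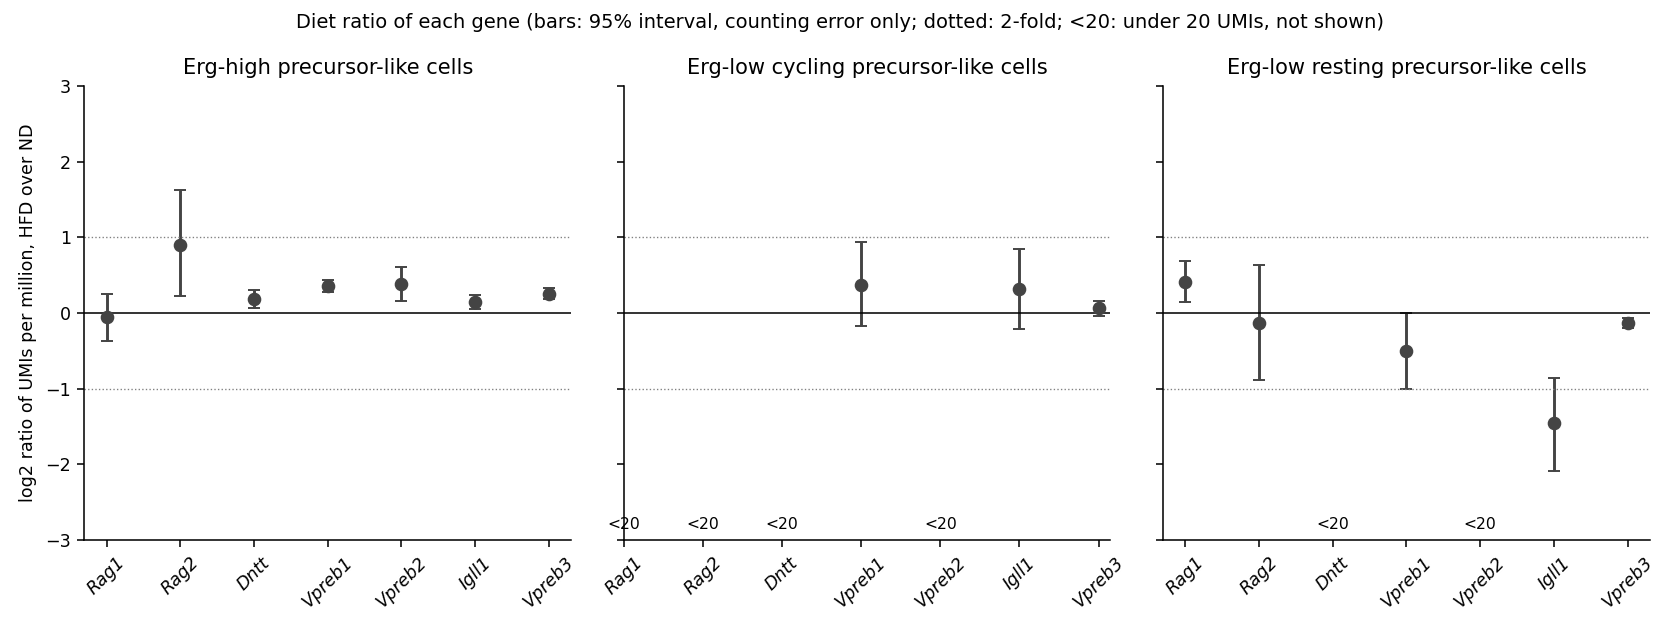
Log2 ratio of UPM, HFD over ND (y axis), of each gene in the 3 groups of B precursor-like cells, with 95% intervals for counting error and dotted lines at 2-fold. Genes under 20 UMIs in both libraries together are marked and not drawn; only Igll1 in the Erg-low resting group lay beyond 2-fold, at -1.45.

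In the later stages few of the genes could be compared. In immature cells 0 of 5 genes passed 2-fold, beside 3.11% of genes: Vpreb3 was at 0.10 (0.04 to 0.15) and Vpreb1 at -0.68 (-1.32 to -0.08), from 65 and 36 UMIs of which 1 ND cell held 17 and 1 HFD cell 14. In mature cells only Vpreb3 had 20 UMIs, at 0.03 (-0.23 to 0.29), beside 3.86% of genes past 2-fold.

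Outside the B lineage, the gene with the largest share of its UMIs was Dntt. Of all Dntt UMIs in kept cells, 74.7% in ND and 71.6% in HFD lay in the B lineage, against 85.9% to 94.5% for the other genes. Dendritic-like cells held Dntt in 21 of 42 ND and 23 of 56 HFD cells, at 80.9 and 86.5 UPM. Siglech, a marker of plasmacytoid dendritic cells, was held by 40 of the 42 ND and all 56 HFD cells of the class, the Dntt-positive cells among them. It was among the markers that named the class, so its wide presence there follows in part from the naming. In dendritic-like cells 0 Rag1 and 0 Rag2 UMIs were found in either library. Hematopoietic progenitor-like cells held Dntt in 15 of 239 ND and 16 of 192 HFD cells, with 5 cells carrying 89.8% and 75.8% of the UMIs, and 12 and 13 of the positive cells also held Flt3, the receptor of early lymphoid progenitors. Macrophage/monocyte-like cells, which were about as deep (medians of 11192 and 11074 UMIs against 9750 and 10225 in dendritic-like cells), held Dntt in 0.378% and 1.12%. Vpreb3 was above its neutrophil-like level in some other classes too, at 65.8 UPM in ND (interval 46.6 to 90.3) and 88.7 in HFD (72.1 to 108) endothelial-like, 60.2 and 53.3 in pericyte-like and 45.9 and 31.8 in T cell-like cells. A single cell held 21 of the 38 ND and 73 of the 99 HFD endothelial-like UMIs, and 12 of 19 and 17 of 30 in pericyte-like cells. Of the Vpreb3-positive endothelial-like cells, 5 of 6 in ND and 6 of 15 in HFD also held Cd79a. Doublet scores were among the highest 5% in 4 and 6 of them. Whether these Vpreb3 UMIs came from mixed cells was not tested. In HFD endothelial-like cells 80 Vpreb1 UMIs were counted, 74 of them in 1 cell, and the single cell of that class with Rag1 held Cd79a and a doublet score among the highest 5%. Unnamed clusters of low depth or mixed markers held Vpreb1 in 8.59% of 256 ND and 11.1% of 180 HFD cells, at median depths of 1502.5 and 1657.5 UMIs.

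The genes other than the 7 whose level most resembled each of them over 23 sets of cells (named classes and B stages by diet) were described by Pearson's r of log2(UPM + 10). Rag1 was nearest to 1810059H22Rik (0.98) and Arpp21 (0.97), Rag2 to Arpp21 (0.99) and Gm30948 (0.98), Vpreb1 to Gm30948 (0.97) and 1810059H22Rik (0.95), and Vpreb2 and Igll1 to Gm30948 (0.99 and 0.97) and Arpp21 (0.97 and 0.96). Dntt was nearest to Sapcd2 (0.93), which acts in spindle orientation, and Rmi2 (0.91), a part of the BLM repair complex. Vpreb3 was nearest to Pou2af1 (0.96), a B cell coactivator, and Chst3 (0.96). Among the 7 themselves the highest pairs were Rag2 with Vpreb2 and Vpreb1 with Igll1, both 0.99, and the lowest was Dntt with Vpreb3 at 0.46. All sets come from the same libraries, and Arpp21 was itself a marker used to name precursors. In the named classes outside the B lineage, Rag1 and Rag2 lay below the 10 UPM that were added. So did Vpreb1, Vpreb2 and Igll1, except in HFD endothelial-like cells (71.7, 14.3 and 42.1 UPM, mostly from 1 cell) and, for Igll1, in HFD dendritic-like cells (14.7). Few sets thus carried the r of these genes. Precursor-like cells entered as a single stage per library, so differences between Erg-high and Erg-low cells did not enter r.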

How the data were processed

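The authors deposited 1 matrix of UMI counts per diet, raw and not normalized, made with Cell Ranger 6.0.1 on mm10 according to the submitters' processing notes, and the annotation was not stated. Counts of 4 pooled mice could not be assigned to mice. Barcodes with more than 500 and fewer than 8000 genes and under 20% mitochondrial UMIs were kept. Cells were clustered in Seurat 5.3.0 (R 4.3.3, sctransform 0.4.2, S and G2M scores regressed, 30 components, resolution 0.5), and B-lineage clusters again with 20 components, with the 7 genes kept out of the variable genes. Clusters were named from marker lists, with at least 3 detected markers, by scoring rules set after the clusters were seen. The 3 precursor groups and the stress-gene cluster were likewise separated after the clusters were seen. Scrublet (scanpy 1.11.5) called 10 of 6029 ND and 11 of 6224 HFD cells doublets, too few to have worked, so all cells were kept and removal was tried as an alternative.

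UMIs were summed per group and library and divided by the group's total UMIs (UPM, UMIs per 1000000 UMIs) or by its cells. Intervals are exact 95% Poisson, binomial (Clopper-Pearson) or conditional binomial intervals, and a count of 0 was given an upper limit of 3 counts. Ratios had 0.5 added to each count, genes needed 20 UMIs in both groups together, and a gene was called at a 2-fold difference. Thinning to 1000 UMIs left out 1 ND mature, 1 HFD immature and 1 HFD mature cell. The ratio script was tested on simulated counts. UMIs mark the 3′ end and are not divided by length. Named genes were the 7 genes, the 4 partner lists, the markers, and for each of the 7 the 2 genes outside the 7 of highest Pearson correlation with it among genes with at least 200 B-lineage UMIs. Further genes named as leading a cluster, Hspa1a, Pf4 and its companion markers among them, were chosen after their values were seen. The 7 genes and the lists were chosen with earlier results of these data known. Sequences came from RefSeq (GRCm38.p6) and gene positions from GENCODE M21.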

Additional observations from a re-analysis of the deposited data

Results flagged for a closer look

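Some UMIs of the 7 genes lay in barcodes that the filter left out, 285 in ND and 412 in HFD, which no comparison used, and these counts exceeded the 3 counts that a value of 0 would allow. In the ND barcodes left out there were 5 Rag1, 5 Vpreb1 and 19 Vpreb3 UMIs. In the HFD barcodes left out there were 5 Rag1, 4 Dntt, 10 Vpreb1, 33 Vpreb3 and 10 Igll1 UMIs. Vpreb3 was there at 42.0 UMIs per 1000000 UMIs in ND and 62.4 in HFD. Samples were not screened for outliers, since each diet was 1 library.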

How the results depend on the processing

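No paired analysis was possible because barcodes were not assigned to mice, and leaving out 1 mouse at a time was not possible for the same reason. The count of genes at least 2-fold lower in cycling precursors went from 2 to 1 with stages from marker UMIs, with cells thinned to 1000 UMIs and with cycling taken from the S or G2M phase. The ND share of precursor-like cells went from 5.61% to 9.11% with stages from marker UMIs, 4.41% at resolution 1.0 and 4.38% without the stress-gene cluster, and the HFD share from 7.07% to 9.53% with marker UMIs. With cells thinned to 1000 UMIs, the share of Rag1-positive precursors with Rag2 went from 17.8% to 4.61%, of Rag2-positive with Rag1 from 62.5% to 30.4%, of Vpreb1-positive with Igll1 from 86.4% to 74.2% and of Igll1-positive with Vpreb1 from 91.6% to 81.7%. With 2 UMIs needed for detection, the first 3 shares were 5.14%, 37.9% and 94.6%. Thinning and the higher detection limit leave fewer positive cells by construction, and for the other settings the cause was not tested. Of the log2 ratios under an alternative, 220 stayed within their interval and 101 moved beyond it, and 0 changed direction past 2-fold. The immature to mature difference of Vpreb3 was much smaller at resolution 1.0 and with stages from marker UMIs, where part of the immature-like cells was named mature. At resolution 1.0 it went from 3.08 to 0.32 in ND and from 3.14 to 0.68 in HFD on the log2 scale. With marker UMIs it was 0.52 and 0.49. That comparison and the alternatives without the stress-gene cluster, without the highest 5% of doublet scores and with equal group weights were chosen after seeing the data. Depth limits Rag2 most, with 66 UMIs in ND and 95 in HFD precursors.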
